A study of Mus musculus with 8 samples.

Results

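Synaptic adhesion genes encode the proteins that hold the presynaptic and postsynaptic membranes together, along with the Shank scaffolds beneath them. The 53 genes described here are neurexins, neuroligins, contactins and their relatives, the leucine-rich synaptic organizers, other adhesion molecules and the Shanks, and they were found by the gene name printed for each array probe. They held 132 of the 56605 probes and 53 of the 37074 gene names on the arrays, with 1 probe for 13 genes and up to 10 probes for a gene. Cerebral cortex and striatum were dissected from 4 male C57BL/6J (B6) mice aged 4 months and 4 male BTBRTF/ArtRbrc (BTBR/R) mice, of which replicate 1 was 6 months old and the others were 4 months old. BTBR/R is a subline of the inbred BTBR strain, which is used as a model of low sociability, and B6 is the reference inbred strain. No treatment or transgene was involved, and each mouse had its own Agilent 1-colour array. The question was which transcripts differ between the strains in these brain regions.

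A synapse forms when a receptor on the axon binds a partner on the dendrite. On the axon side the main hubs are the neurexins and the LAR-type receptor phosphatases (Ptprd, Ptprs, Ptprf). Neuroligins, LRRTMs and cerebellins are partners of neurexins, whereas Slitrks, SALMs and Il1rapl1 bind the phosphatases. FLRTs bind latrophilins, SynCAMs bind each other, and the contactins act with contactin-associated proteins and immunoglobulin-type molecules in axon growth and contact. Many of these genes are long, have several promoters and are spliced in several ways, so that probes of the same gene can report different transcripts.

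Signals are given as scaled signals, the log2 processed intensity minus the 75th percentile of its array, and changes as BTBR/R minus B6 on that log2 scale. A probe passed the test at a limma adjusted p below 0.05 over all probes, and was called when it also changed by at least 2-fold. A probe was detected on an array if the scanner software marked it well above background, and detected throughout a strain if this held on each of its 4 arrays. Groups are said not to overlap when every mouse of 1 strain was above every mouse of the other. The share of all probes with such groups was not counted. All 8 arrays lay on 1 slide and in 1 scan, with B6 in slide column 1 and BTBR/R in column 2, so strain and column cannot be told apart. The detection limit was a processed signal of 14.5 to 17.8 on B6 arrays and 36.1 to 47.1 on BTBR/R arrays, and 64.5 to 66.8% and 53.5 to 57.2% of all probes were detected. Markers of cortical excitatory neurons (6 of 6) and of striatal projection neurons (9 of 9) were detected on all 8 arrays. Of 5 cerebellum markers, the granule cell genes Cbln3 and Gabra6 were detected on no array, and the other 3 on all 8 arrays.

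Adhesion genes were widely detected. Of the 132 probes, 102 (77.3%) were detected on all 8 arrays, against 50.4% of all probes, and 10 (7.58%) were detected on no array, against 26.3%. A further 14 were detected throughout 1 strain only and 6 on some arrays. Every gene except Cntnap3, Cntnap5b and Slitrk6 had a probe that was detected on all 8 arrays. The median change of the 102 probes was -0.01, beside 0.00 for the 28547 probes detected on all 8 arrays, and the median size of the change was 0.108 beside 0.121. Within 0.25 of no change lay 82 of the 102 (80.4%, beside 75.6% of all such probes). In bulk tissue, fewer cells of a type and less RNA per cell cannot be told apart.

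Among all 132 probes, 4 were called higher and 4 lower, where the share of all probes called was 20.2% higher and 2.27% lower. The 4 called higher belonged to Flrt3, Cntnap4, Dscam and Ncam2 and were detected on no array. Of all probes detected on no array, 67.7% were called higher. With normexp background correction, which called 0.408% of all probes higher and 0.587% lower, none of the 4 was called. The probes of Cntnap4 and Dscam also lay on the strand opposite to the other probes of their genes. Among the 116 probes detected throughout at least 1 strain, none was called higher and 4 (3.45%) were called lower, against 1.03% and 3.38% of all probes detected in that way. The 4 lower probes belonged to Lrrtm4, Ptprd, Lrfn5 and Cntnap3. Of the 102 probes detected on all 8 arrays, 11 passed the test higher and 14 lower at any size (24.5%, beside 26.9% of all such probes, 13.0% higher and 13.9% lower). Scaling by spike-in probes moved the median of all probes by 0.11 and this split to 19 higher and 5 lower, so the direction of the small changes depends on the scaling. Passing changes of under 2-fold were followed through 19 other settings of background, scaling, filter, test and mice left out. Where they no longer passed in some, the number or the settings are given. Conversely, 4 of the 77 probes on all 8 arrays that did not pass did so with normexp correction, and they belonged to Lrrtm4, Slitrk1, Il1rapl1 and Ncam1.

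**Figure D1:**
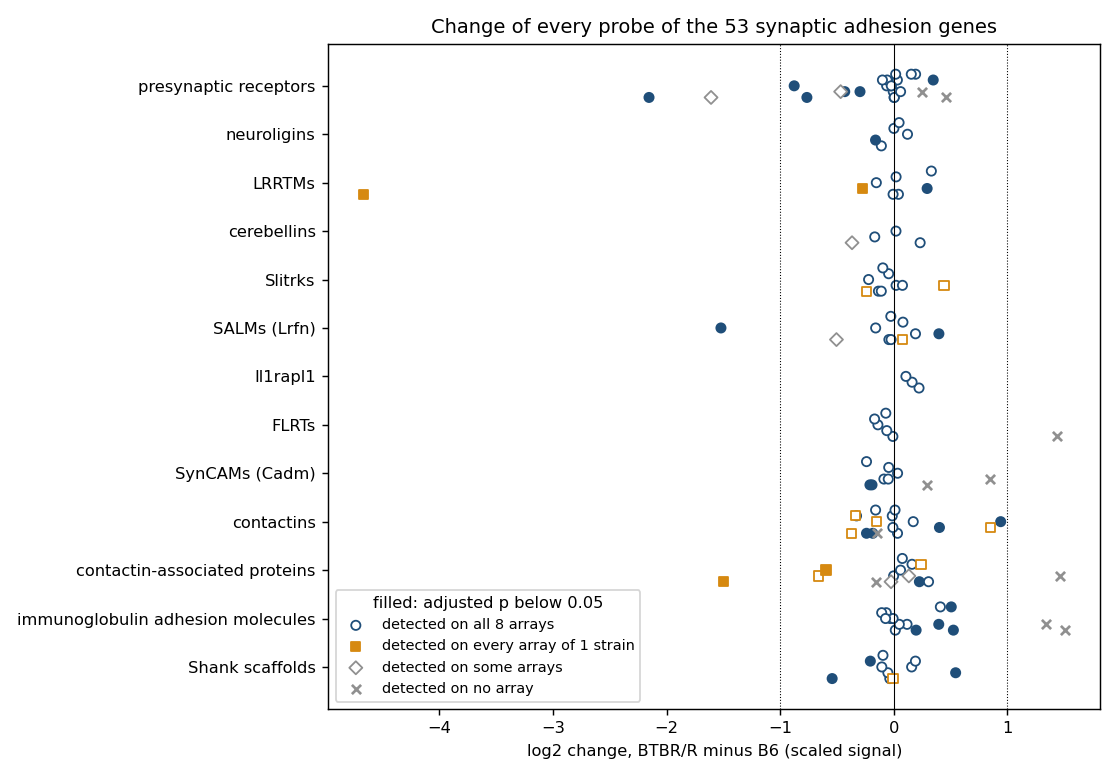
Log2 change (BTBR/R minus B6, x axis) of all 132 probes by gene family (y axis), with the symbol showing on which arrays a probe was detected and filled symbols marking an adjusted p below 0.05 among detected probes. Most probes lie close to 0, the 4 probes detected and called lower lie left of -1, and the 4 beyond 1 were detected on no array.

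The probes that carry the 4 lower calls are shown because the other probes of the same genes were not called. The sequences are those of the array probes, read 5′ to 3′ on the strand of the transcript, with positions in the mm9 build. For Lrrtm4, Ptprd and Lrfn5 only the first 30 bases of the 60 are given. For comparison, the Lrrtm4 neighbour 636 bases upstream of the called probe is given whole, with the triplet TAA at its end in capitals, which is a stop in its first reading frame. Both Cntnap3 probes are given whole.
Lrrtm4, called (chr6:80759820-80759879, plus strand): tcaaatacatcgaagtgtatattcacacag
Lrrtm4, neighbour (chr6:80759124-80759183, plus strand): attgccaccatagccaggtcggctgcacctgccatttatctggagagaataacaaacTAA
Ptprd, called (chr4:76237289-76237348, minus strand): gctgatggggagaagtctctgtttcctctc
Lrfn5, called (chr12:62625799-62705993, plus strand): ttccccctagaggcaccagatgactccagt
Cntnap3, called (chr13:64848176-64849797, minus strand): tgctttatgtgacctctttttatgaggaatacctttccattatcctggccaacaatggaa
Cntnap3, other (chr13:64838937-64838996, minus strand): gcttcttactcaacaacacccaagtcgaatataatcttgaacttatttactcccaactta

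The Lrfn5 and Cntnap3 called probes cover 80195 and 1622 bases of the genome, more than their 60 bases, so each spans a splice junction. The exon or untranslated region under the other probes was not analysed here, nor were differences between the strains in the sequence under any probe.

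Among the presynaptic receptors, Ptprd, the phosphatase that binds Slitrks and Il1rapl1, had the largest change detected on all 8 arrays. Its probe at 76237289 gave scaled signals of 2.50, 2.35, 2.63 and 2.57 in B6 mice and 0.18, 0.34, 0.46 and 0.46 in BTBR/R mice. Every BTBR/R mouse was below every B6 mouse, by 2.15 on the log2 scale (a 4.45-fold difference, standard error 0.09, limma adjusted p = 8.61e-06), and the change was -2.09 with normexp correction. The probe 2166 bases further upstream in the transcript's direction had signals of 1.30, 1.24, 1.51 and 1.39 in B6 and 0.65, 0.95, 1.04 and 1.08 in BTBR/R mice. It fell by 0.43 (adjusted p = 0.0163) and did not pass with spike-in scaling or with signals floored at the detection limit. A further 2 Ptprd probes fell without overlap between the strains, the one nearest the 5′ end by 0.88 (standard error 0.06, adjusted p = 2.76e-05) and one at 75728180 by 0.76 (standard error 0.06, adjusted p = 2.76e-05). The other 3 probes detected on all 8 arrays did not pass, with changes of 0.16 for the brightest probe, at the 3′ end, and of 0.02 and -0.10. The brightest passed, higher in BTBR/R, with spike-in scaling or with limma's trend and robust options. Of 3 remaining dim Ptprd probes, 2 were detected on some arrays of B6 only, with changes of -1.61 and -0.47 that did not pass, and 1 on no array.

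The leukocyte common antigen-related phosphatase Ptprf, measured by 1 probe, rose by 0.35 (standard error 0.05, adjusted p = 0.00129). Its scaled signals were 1.44 to 1.56 in B6 and 1.76 to 1.91 in BTBR/R mice, without overlap. The 2 probes of Ptprs, the third member of that family, changed by 0.06 and -0.02 and did not pass. Of 6 Nrxn3 probes, all detected on all 8 arrays, 1 passed. It lay at 90499896 on chromosome 12, read 0.11 to 0.21 in B6 and -0.22 to -0.08 in BTBR/R mice, and fell by 0.30 (adjusted p = 0.00279), which did not pass with spike-in scaling. The other 5 Nrxn3 probes changed by between -0.06 and 0.19 and did not pass. The 3 detected probes of Nrxn2 changed by -0.02 to 0.00.

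**Figure D2:**
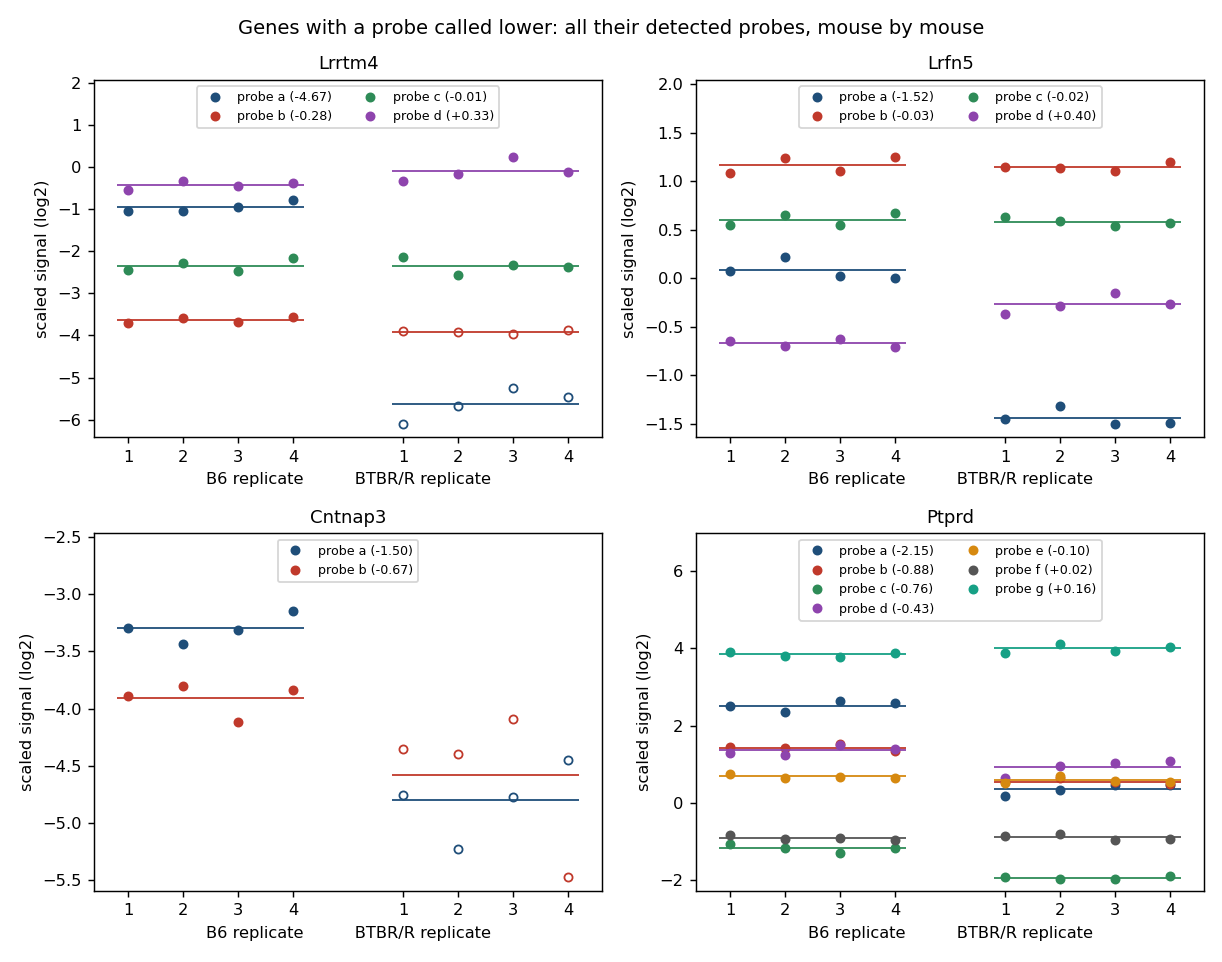
Scaled signal (log2, y axis) of each mouse (x axis) for the probes of Lrrtm4, Lrfn5, Cntnap3 and Ptprd detected throughout at least 1 strain; lines are strain means, open points belong to a probe detected on no BTBR/R array, and the change is given in brackets. The called probe of each gene separates the strains. Some other probes stay level (Lrrtm4 -0.01, Lrfn5 -0.03 and -0.02, Ptprd 0.02), while Lrfn5 has 1 that rises by 0.40 and Ptprd 3 more that fall.

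The neuroligins changed little. Nlgn1, a postsynaptic neurexin partner found at excitatory synapses, had 3 detected probes, of which the brightest changed by -0.11 (adjusted p = 0.108). A dimmer Nlgn1 probe read -1.63, -1.55, -1.54 and -1.59 in B6 and -1.79, -1.80, -1.68 and -1.68 in BTBR/R mice. These groups did not overlap, and the change of -0.16 only just passed (adjusted p = 0.0423) and did not pass in 10 of 19 other settings. The 2 probes of Nlgn3 changed by 0.00 and 0.05.

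Lrrtm4, a leucine-rich neurexin and heparan sulfate partner, held the largest difference of all the adhesion probes. Its probe at 80759820 on chromosome 6 gave scaled signals of -1.04, -1.06, -0.95 and -0.78 in B6 mice and -6.10, -5.69, -5.25 and -5.47 in BTBR/R mice, where no array detected it. The measured difference was -4.67 (standard error 0.18, limma adjusted p = 5.81e-06), and against the BTBR/R detection limit the signal was at least 6.72-fold higher in B6. With normexp correction the difference was -2.32 and was still called. The neighbour 636 bases away, annotated to the same transcript, read -2.45, -2.29, -2.47 and -2.17 in B6 and -2.14, -2.56, -2.32 and -2.38 in BTBR/R mice. These groups overlapped, with a change of -0.01 (adjusted p = 0.977) whose sign turned in several settings.

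Toward the other end of the gene, the brightest Lrrtm4 probe read -0.54, -0.34, -0.45 and -0.38 in B6 and -0.33, -0.16, 0.23 and -0.11 in BTBR/R mice. It was higher by 0.33 and did not pass (adjusted p = 0.0618), although the groups did not overlap, and it passed with normexp correction or spike-in scaling. The fourth Lrrtm4 probe, detected in B6 only, passed without overlap (-0.28, adjusted p = 0.00362), with a bound of at least 1.04-fold, but not in 3 of 18 other settings that fitted it. Among the other LRRTMs, which are also neurexin partners, Lrrtm2 rose by 0.29 (adjusted p = 0.0127), from 1.60 to 1.79 in B6 mice to 1.83 to 2.04 in BTBR/R mice. Lrrtm1 changed by 0.04 and the brightest Lrrtm3 probe by -0.15, and neither passed.

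Cerebellins, secreted proteins that bridge neurexins and postsynaptic receptors, did not pass in any of their 4 probes. Cbln1 read 1.18, 0.13, 0.35 and 0.74 in B6 and 0.90, 0.77, 0.81 and 0.85 in BTBR/R mice, so that the strains overlapped and the B6 mice were the more scattered (change 0.23, adjusted p = 0.433). Cbln2 changed by -0.17 and Cbln4 by 0.02.

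The Slitrks, postsynaptic partners of the phosphatases, did not pass in any of 9 probes, with changes of the brightest probes between -0.22 for Slitrk3 and 0.44 for Slitrk6. Slitrk3, which acts at inhibitory synapses, read 0.74, 0.82, 0.75 and 0.80 in B6 and 0.38, 0.75, 0.62 and 0.48 in BTBR/R mice. These groups overlapped through BTBR/R replicate 2 alone (adjusted p = 0.072), and the probe passed without that mouse or with limma's trend and robust options. Slitrk1, whose groups did not overlap, changed by -0.13 (adjusted p = 0.065) and passed with normexp correction (-0.16, adjusted p = 0.0304). Slitrk2 changed by 0.02, Slitrk4 by -0.10 and Slitrk5 by 0.08.

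Slitrk6 varied more between mice than between strains. It read -0.78, -3.68, -3.55 and -3.51 in B6 and -1.68, -1.44, -3.10 and -3.53 in BTBR/R mice (adjusted p = 0.695). B6 replicate 1 and BTBR/R replicates 1 and 2 were high, and the other mice were low. The mean scaled signal of 6 thalamus markers, all detected on all 8 arrays, was 1.81 in B6 replicate 1 and 1.04 in BTBR/R replicate 2, 0.33 in BTBR/R replicate 1, and 0.08 to 0.26 in the other mice. Cbln1 was highest in B6 replicate 1 as well. The part of thalamic tissue in these values was not tested.

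**Figure D3:**
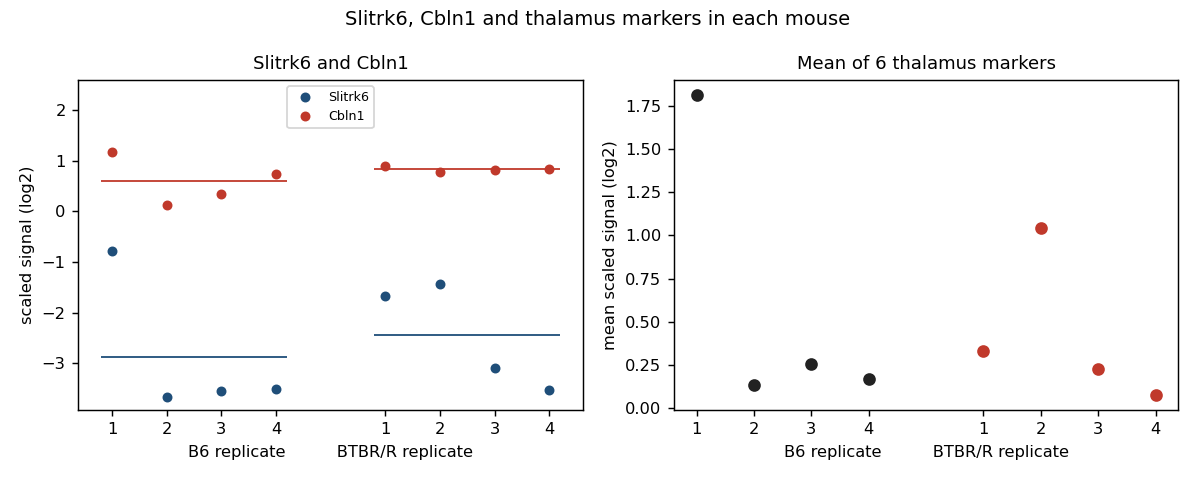
Left, scaled signal (log2) of Slitrk6 and Cbln1 in each mouse with strain means as lines; right, mean scaled signal (log2) of 6 thalamus markers in each mouse, B6 in black and BTBR/R in red. Slitrk6 is highest in B6 replicate 1 and BTBR/R replicates 1 and 2, and the thalamus markers in B6 replicate 1 (1.81) and BTBR/R replicate 2 (1.04).

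Lrfn5, a SALM that binds presynaptic phosphatases, had probes that moved in opposite directions. The junction probe nearest the 5′ end read 0.08, 0.22, 0.02 and 0.01 in B6 and -1.45, -1.32, -1.5 and -1.49 in BTBR/R mice. Every BTBR/R mouse was below every B6 mouse, and the signal fell by 1.52, a 2.87-fold difference (standard error 0.07, limma adjusted p = 1.3e-05), and by 1.32 with normexp correction. A probe further along, at 62772734 on chromosome 12, read -0.64, -0.70, -0.63 and -0.70 in B6 and -0.37, -0.29, -0.15 and -0.26 in BTBR/R mice. That probe rose by 0.40, also without overlap (adjusted p = 0.00107). The 2 probes near the 3′ end, among them the brightest, changed by -0.03 and -0.02 with overlapping groups. The remaining SALMs did not pass: the brightest probes of Lrfn1, Lrfn2, Lrfn3 and Lrfn4 changed by between -0.16 and 0.19.

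Il1rapl1, an interleukin receptor relative that binds Ptprd, read 1.40, 1.21, 1.27 and 1.51 in B6 and 1.51, 1.51, 1.67 and 1.59 in BTBR/R mice by its brightest probe. All 3 of its probes were higher, by 0.11 to 0.22, and none passed (adjusted p = 0.0572 for the brightest, which passed in 5 other settings, among them normexp correction and spike-in scaling). The FLRTs, partners of latrophilins, did not pass in any of 5 detected probes. The largest change, of -0.17 (adjusted p = 0.111), was that of an Flrt2 probe that read 0.10, 0.26, 0.36 and 0.15 in B6 and 0.04, -0.06, 0.09 and 0.13 in BTBR/R mice, with overlap.

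**Figure D4:**
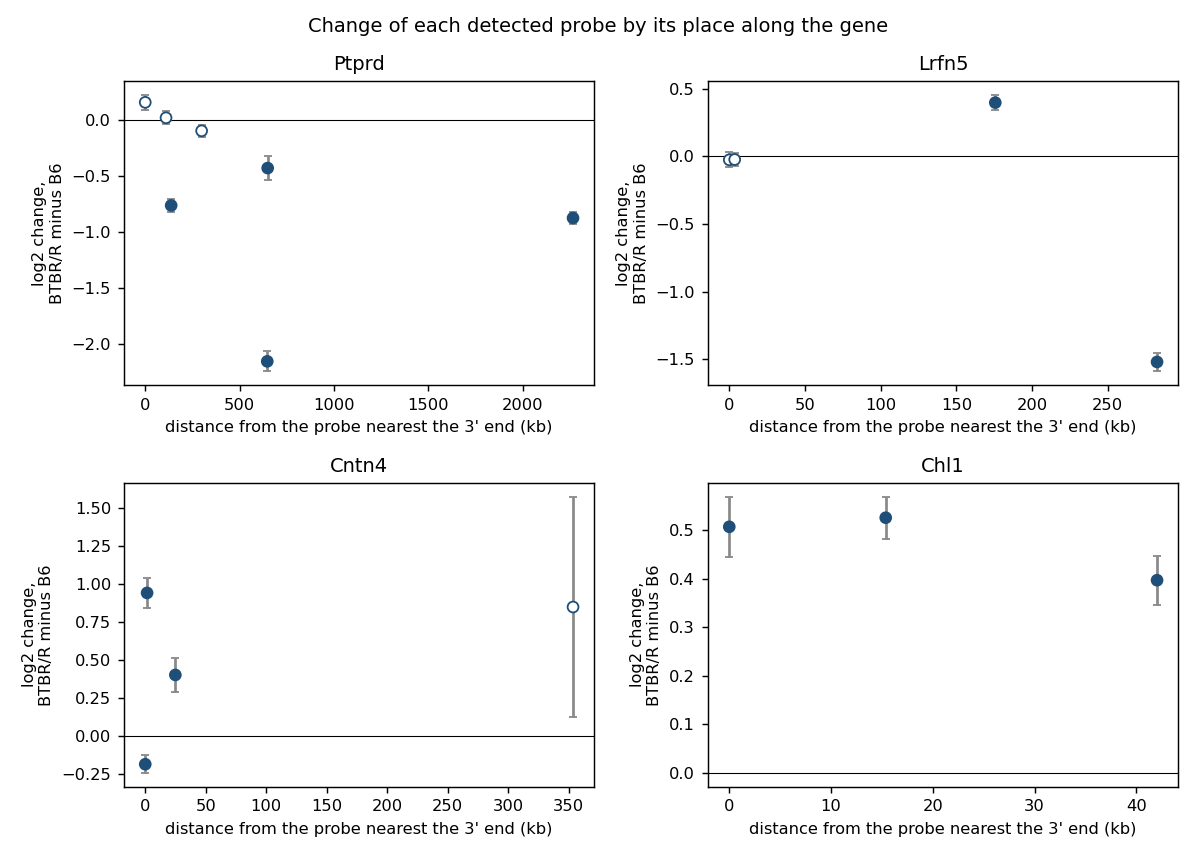
Log2 change (BTBR/R minus B6, y axis, with standard errors) of the probes detected throughout at least 1 strain, against their distance in kb from the probe nearest the 3′ end of Ptprd, Lrfn5, Cntn4 and Chl1 (x axis); filled points passed the test. The probes nearest the 3′ end did not pass in Ptprd (0.16) and Lrfn5 (-0.03). Further along, 4 Ptprd probes fall, Lrfn5 has 1 probe that rises (0.40) and 1 that falls (-1.52), and the 3 Chl1 probes rise.

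Among the SynCAMs, which bind across the cleft to each other, Cadm1 fell by 0.21 in its brightest probe (adjusted p = 0.0188), from 3.40 to 3.59 in B6 mice to 3.24 to 3.30 in BTBR/R mice, and by 0.09 in the other detected probe, which did not pass. Cadm3 fell by 0.19 in 1 probe (adjusted p = 0.0266). Its brightest probe read 2.77, 2.79, 2.78 and 2.98 in B6 and 2.69, 2.08, 2.74 and 2.84 in BTBR/R mice, with overlap and a change of -0.24 that did not pass (adjusted p = 0.301). Leaving out each mouse gave -0.32 to -0.07 for the brightest probe. The Cadm1 fall did not pass with spike-in scaling, and that of Cadm3 in 6 of 19 other settings. Cadm2 and Cadm4 changed by 0.03 and -0.05.

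The contactins, glycosylphosphatidylinositol-anchored axonal molecules, held probes that passed in both directions. Cntn4, linked to axon guidance, had the largest rise of any adhesion probe detected on all 8 arrays, in a probe that read -1.90, -1.72, -1.59 and -2.0 in B6 and -0.95, -0.74, -0.83 and -0.94 in BTBR/R mice. No BTBR/R mouse overlapped with B6, and the change was 0.94 (standard error 0.10, adjusted p = 0.000188), a 1.92-fold difference. It crossed 2-fold with spike-in scaling or without B6 replicate 3, and was 0.71 with normexp correction. A second Cntn4 probe rose by 0.40 (adjusted p = 0.0254), which did not pass in 5 of 19 other settings. The brightest, at the 3′ end, fell by 0.18 (adjusted p = 0.039), which did not pass in 10. Cntn5 fell by 0.33 in its brightest probe (adjusted p = 0.00912), from -2.48 to -2.23 in B6 mice to -2.77 to -2.63 in BTBR/R mice, and did not pass with spike-in scaling. A Cntn6 probe with overlapping groups changed by -0.24 (adjusted p = 0.0424), but by -0.022 with normexp correction, and did not pass in 11 of 19 other settings. The brightest Cntn6 probe changed by 0.01. Cntn1, Cntn2 and Cntn3 changed by 0.03, 0.17 and -0.16 in their brightest probes and did not pass.

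Contactin-associated proteins partner the contactins at axonal domains. Cntnap3 was dim, and its called probe read -3.30, -3.44, -3.32 and -3.15 in B6 and -4.75, -5.22, -4.78 and -4.45 in BTBR/R mice, where it was detected on no array. The measured difference was -1.5 (standard error 0.16, limma adjusted p = 0.000174), but the bound was only at least 1.33-fold, and the call was lost with normexp correction (-0.48). Its other probe read -3.89, -3.80, -4.12 and -3.83 in B6 and -4.35, -4.40, -4.09 and -5.47 in BTBR/R mice, with overlap (change -0.67, adjusted p = 0.108), and no fold could be given. That probe passed without BTBR/R replicate 4. Its change was -0.83 to -0.37 when each mouse was left out, and -0.02 with normexp correction. Cntnap1, found beside the node of Ranvier, changed by 0.23 in its brightest probe (adjusted p = 0.0446), which did not pass in 12 of 19 other settings, and by 0.00 in the other. Cntnap2, the partner of Cntn2 that holds potassium channels in place, changed by 0.06 and 0.16 and did not pass. The brightest Cntnap4 probe changed by 0.08, which did not pass. A dim Cntnap4 probe detected in B6 only passed without overlap (-0.60, adjusted p = 0.0154), with a bound of at least 1.16-fold, but not with signals floored at the highest detection limit. Cntnap5a read -1.98, -1.94, -1.85 and -1.85 in B6 and -1.56, -1.32, -1.51 and -2.0 in BTBR/R mice, with overlap (change 0.31, adjusted p = 0.122). It passed with spike-in scaling or without BTBR/R replicate 4. The 2 probes of Cntnap5b were detected on some B6 arrays only.

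The close homolog of L1 (Chl1), an immunoglobulin adhesion molecule of neurite growth, rose in all 3 of its probes. The brightest read 3.39, 3.48, 3.44 and 3.53 in B6 and 3.88, 3.89, 4.04 and 4.06 in BTBR/R mice, a change of 0.51 (standard error 0.06, limma adjusted p = 0.000426). The next read 1.57, 1.61, 1.54 and 1.62 in B6 and 2.12, 2.13, 2.06 and 2.12 in BTBR/R mice, a change of 0.53 (standard error 0.04, adjusted p = 3.68e-05). The last, which covers a splice junction, read -0.55, -0.44, -0.40 and -0.43 in B6 and -0.09, 0.00, -0.08 and -0.06 in BTBR/R mice, a change of 0.40 (standard error 0.05, adjusted p = 0.000512). In each probe all BTBR/R mice were above all B6 mice, and each passed in all 19 other settings. Of the members with at least 2 probes on all 8 arrays, only Chl1 and Cntn4 passed in every one of them, and only the Chl1 probes moved in the same direction. L1cam, its close relative, changed by -0.11 to 0.05 in 3 probes and did not pass. Ncam2 changed by 0.20 in its brightest probe (adjusted p = 0.0366), which did not pass in 9 of 19 other settings. None of 5 Ncam1 probes passed, with changes between -0.07 and 0.41, nor did the detected Dscam probe (-0.07).

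On distal chromosome 6 of mm9, Cntn3 (102.1 Mb), Chl1 (103.6 Mb), Cntn6 (104.5 to 104.8 Mb) and Cntn4 (106.3 to 106.6 Mb) lie near each other. Chl1 rose in all 3 probes and Cntn4 had probes in both directions. The 2 Cntn6 probes changed by -0.24 and 0.01, of which the first did not pass in most settings, and Cntn3 did not pass (-0.16, adjusted p = 0.0534).

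The Shanks are scaffolds of the postsynaptic density, which link receptors and adhesion complexes to actin. Shank3 rose by 0.55 in its brightest probe (standard error 0.09, adjusted p = 0.00233), which read 2.33, 2.26, 2.06 and 2.22 in B6 and 2.74, 2.97, 2.70 and 2.64 in BTBR/R mice, without overlap. Its 2 dimmer probes, which lie further toward the 5′ end, were higher by 0.16 and 0.19 with overlapping groups and did not pass. The brightest Shank2 probe fell by 0.21 (adjusted p = 0.0167), which did not pass with spike-in scaling. A dim one read -2.71, -2.82, -2.73 and -2.80 in B6 and -3.49, -3.32, -3.43 and -3.0 in BTBR/R mice, a change of -0.54 (adjusted p = 0.00611) that did not pass with normexp correction (-0.10). The third Shank2 probe changed by -0.09, and the 4 probes of Shank1 by -0.10 to -0.01, none passing.

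**Figure D5:**
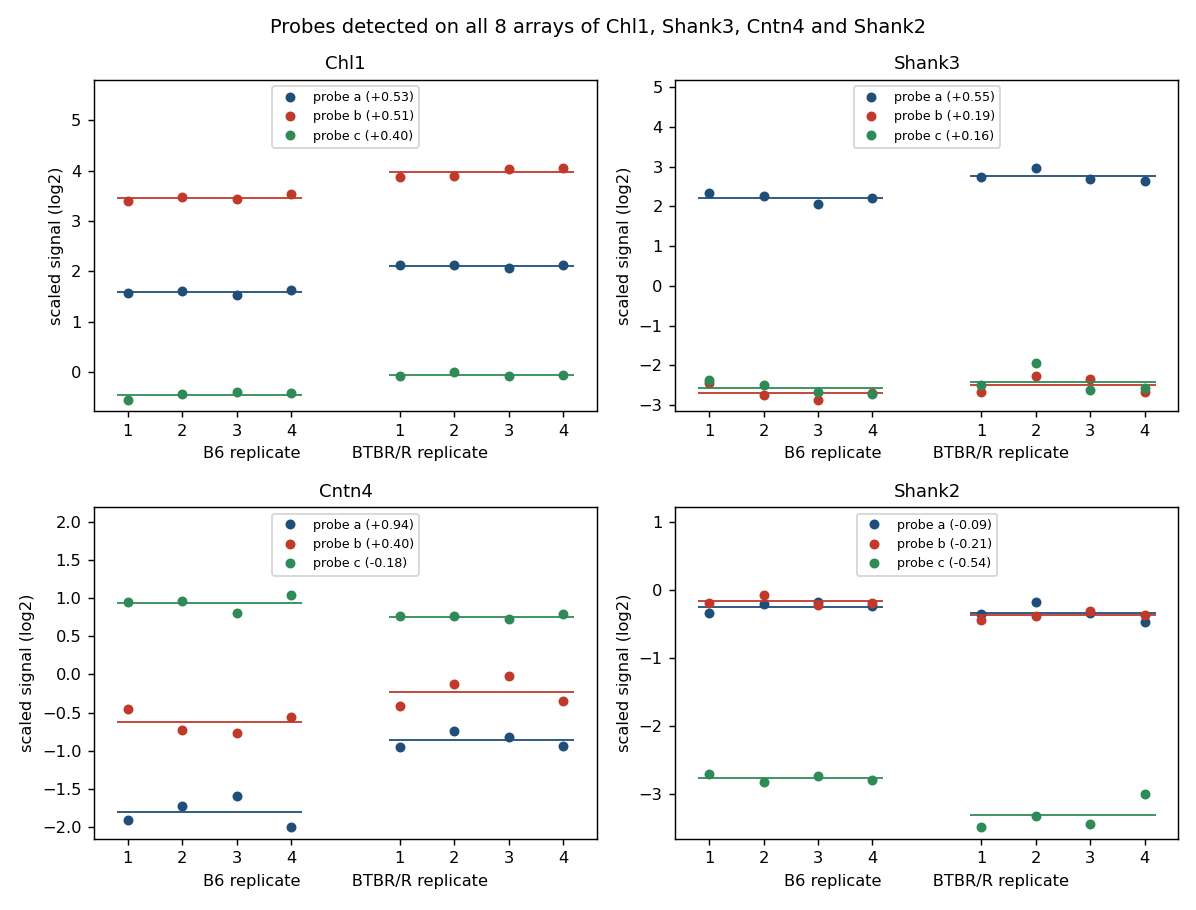
Scaled signal (log2, y axis) of each mouse (x axis) for the probes of Chl1, Shank3, Cntn4 and Shank2 detected on all 8 arrays, with strain means as lines and the change in brackets. All 3 Chl1 probes separate the strains, whereas in Shank3 only the brightest probe does, and the Cntn4 probes move in both directions.

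Of the 50 genes whose brightest probe was detected on all 8 arrays, 6 (12%) passed higher (Ptprf, Lrrtm2, Cntnap1, Ncam2, Chl1 and Shank3) and 4 (8%) lower (Cadm1, Cntn4, Cntn5 and Shank2), beside 13.9% and 14.5% of all such genes. Probes disagreed most in Lrrtm4, whose called probe was detected in B6 mice only, and among probes detected on all 8 arrays in Ptprd, Lrfn5 and Cntn4. Of 29 genes with at least 2 probes on all 8 arrays, the last 3 (10.3%) had probes whose changes differed by 1 or more, namely 2.31, 1.92 and 1.13, beside 257 of 6508 such genes on the arrays (3.95%). A range grows with the number of probes, which was not matched, and Ptprd, Lrfn5 and Cntn4 had 7, 4 and 3 such probes. The median range was 0.155 for the 29 genes and 0.150 for all. Of the 102 probes, 86 carried a RefSeq transcript and 16 of those passed (18.6%, beside 25.8% of all such probes). Of the 16 with another transcript record, 9 passed (56.3%, beside 29.3%). Several of these 9 belonged to Ptprd and Lrfn5, so they do not stand for 9 genes.

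A list of 53 other genes of the same adhesion systems (latrophilins and teneurins, netrin-G proteins, L1 and Dscam relatives, further receptors and cytoplasmic binding proteins) was read alongside. Of 131 of their probes detected on all 8 arrays, 11 passed higher and 16 lower, with a median change of -0.01, where 13.0% and 13.9% of all such probes passed. A probe of sidekick 2 (Sdk2), a homophilic molecule of synaptic layering, read -1.49, -1.62, -1.72 and -1.51 in B6 and -0.30, -0.26, -0.51 and -0.44 in BTBR/R mice. It was called higher without overlap (1.21, adjusted p = 2.76e-05), but with normexp correction it changed by 0.92 and was not called, and 2 other Sdk2 probes on all 8 arrays changed by 0.05 and -0.24 and did not pass. A dim probe of the latrophilin Adgrl3 was called lower (-1.11), but it was dimmer in B6 mice than the BTBR/R limit of detection, so no fold could be given. Its 5 probes on all 8 arrays changed by between -0.16 and 0.11. The list's 2 other called probes, both higher, belonged to Dlg4, detected on some arrays, and Gpc4, detected on none.

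The mean scaled signal of 6 neuron markers was 5.72 to 5.77 in B6 and 5.71 to 5.79 in BTBR/R mice, where 1 of 6 passed, higher (Eno2, 0.13, adjusted p = 0.0471). Markers of striatal projection neurons read 3.27 to 3.42 and 3.11 to 3.32, with 1 of 9 called lower (Pde10a, -1.07, adjusted p = 2.49e-05). The mean of 6 microglia markers was 1.83 to 1.86 and 1.48 to 1.62, where 3 passed lower, led by C1qb (-1.42), and 1 higher (P2ry12, 0.22). Endothelial markers read 0.96 to 1.0 and 0.69 to 0.80, and all 4 had changes below 0, of which 1 passed (Cldn5, -0.51). Astrocyte markers read 3.13 to 3.25 and 2.91 to 3.15, with changes below 0 in 5 of 6, of which 3 passed. Oligodendrocyte markers read 3.37 to 3.73 and 3.18 to 3.42, with changes below 0 in all 8, of which 2 passed (Mobp, -0.80, and Mog). Red blood cell markers read 2.56 to 4.32 and 2.40 to 2.68, with changes below 0 in 4 of 5, of which 3 were called lower (Alas2, Hba-a1 and Hba-a2). Of the other two, Hbb-b1 changed by -1.0 (adjusted p = 0.0706) and Hbb-b2 by 0.63 (adjusted p = 0.228). Changes were below 0 in all 6 thalamus markers, none of which passed, and above 0 in 5 of 6 cortical excitatory neuron markers. Spike-in scaling moved the median of all probes by 0.11, so the direction of the smaller marker changes depends on the scaling. All of these markers were detected on all 8 arrays. The part of the markers in the changes of the adhesion genes was not tested.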

How the data were processed

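RNA from 4 B6 and 4 BTBR/R mice was hybridized to 1-colour arrays, and samples were grouped by the strain in their labels. The authors deposited spot intensities from Agilent Feature Extraction 10.7.3.1 (mean, background and processed signal, which is background subtracted and detrended) and log2 values from GeneSpring. Control and outlier spots (36 to 52 per array) were left out and spots of a probe averaged, giving 56605 probes. The log2 processed signal minus the array's 75th percentile was compared with limma 3.58.1 in R 4.3.3, Benjamini-Hochberg adjusted over all probes. Tables and figures used Python 3.11.15, pandas 2.3.3 and matplotlib 3.10.9. No probe was saturated. The number of arrays limits the precision, and p-values measure the spread between 4 mice of a strain.

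Folds of probes not detected on any array of a strain are bounds: the mean of the brighter strain against, per array of the dimmer strain, the higher of its detection limit and the probe's signal. Members were matched by gene name, and all 53 symbols were found in the RefSeq table. Probe positions are those of the arrays' mm9 annotation. The members and lists were chosen with earlier results of these data known. Genes were named by rule: detected called probes with the other probes of their genes, the largest change on all 8 arrays in each family, and the brightest probe of each member. Further passing probes were named after their values were seen. In simulated data for BTBR/R against B6 over 56605 probes, limma called 161 of the 200 probes that had been changed, and 3 others. Both strains were simulated from the same mean, without their difference in detection limits. The 3 other calls therefore do not show how often dim probes are falsely called. The alternatives were other background corrections, scalings, filters on dim probes, tests, a replicate block and leaving out each mouse.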

Additional observations from a re-analysis of the deposited data

Results flagged for a closer look

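In 82 sets of 4 mice (Slitrk6 and the 43 probes followed through the settings, in each strain whose 4 arrays all detected them), 5 held a mouse far from the other three, and chance gives about 1 in 20. Slitrk6 in B6 replicate 1 read -0.78, against -3.68 to -3.51 in the other B6 mice. A Cadm3 probe read 2.98 in B6 replicate 4, against 2.77 to 2.79, and another Cadm3 probe 2.07 in BTBR/R replicate 3, against 2.12 to 2.13. A Cntnap1 probe read 1.89 in B6 replicate 3, against 2.07 to 2.09. A Chl1 probe read 2.06 in BTBR/R replicate 3, against 2.12 to 2.13, which is still above all B6 mice.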

How the results depend on the processing

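The calls of Lrrtm4, Ptprd and Lrfn5 held in every setting that fitted their probes, and the Cntnap3 call was lost with normexp correction (-0.48) and with signals floored at the highest detection limit (-0.25). All probes called higher and lower numbered 231 and 332 with normexp, 276 and 513 with the floor, and 300 and 331 among probes detected on all 8 arrays. The number called higher was 544 with quantile normalization and 362 among probes detected throughout at least 1 strain. In each of these 5 settings, 0 adhesion probes were called higher, and 2 were called lower among probes detected on all 8 arrays. The partner list, with 3 probes called higher and 1 lower, had 0 higher and 0 lower with normexp, 1 and 0 with quantile normalization, the floor or the filter for all 8 arrays, 1 higher with the other filter, and 0 lower with spike-in scaling. With spike-in scaling 1 detected adhesion probe was called higher, 19 passed higher and 5 lower at any size, and the median of the adhesion probes was 0.108. With median scaling it was -0.034.

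Small changes turned sign: the Lrrtm4 neighbour to 0.093 (normexp) and 0.109 (spike-in), Lrfn5 probes at the 3′ end to 0.055 (normexp), 0.089 and 0.091 (spike-in), and Ptprd probes to 0.015 (spike-in) and -0.010 (median scaling). The cause was not tested. Leaving out each mouse gave -0.076 to 0.0655 for the Lrrtm4 neighbour, -0.053 to 0.00023 and -0.042 to 0.00051 for the Lrfn5 probes, and -0.014 to 0.046 for Ptprd. It gave 0 to 1 detected adhesion probes called higher, and 0 to 2 partner probes called lower. The 1 called without B6 replicate 3 was the Cntn4 probe with the largest rise, whereas without BTBR/R replicate 2 a different probe was called. Mouse numbers did not pair the samples (correlations of same-numbered mice -0.07 to 0.16). With a replicate block, 4 adhesion probes were called higher and 4 lower, 7 adhesion probes on all 8 arrays passed lower at any size, 0 partner probes were called lower, and 10 single changes (among them Cadm1, Cadm3, Cntn5, Shank2 and Nlgn1) no longer passed.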
